A study of Gallus gallus with 4 samples.

Results

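The H3K4me3-only peaks described here are intervals of the H3K4me3 peak list, on chicken autosomes, that shared not a single base with any interval of the H3K27ac list or of the H3K27me3 list. They were chosen by the measured positions of the peaks in the 3 deposited lists, with an overlap of 1 bp as the limit. The rule selected 12428 of the 25308 autosomal H3K4me3 peaks, which is 49.1% (95% exact Clopper-Pearson interval 48.5 to 49.7). The whole series held 95837 peaks, of which 45426 were for H3K27ac, 27344 for H3K4me3 and 23067 for H3K27me3.

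The chromatin came from otic-epibranchial progenitors (OEPs), the cranial ectoderm that gives rise to the inner ear and to the epibranchial ganglia, dissected from chick embryos with 8 to 9 somites (ss8-9). About 200 pieces of tissue were dissected, and the chromatin was processed by Nano-ChIP, a form of ChIPseq for small amounts of chromatin. No genetic alteration or treatment is named for these embryos, and the comparison is between antibodies on the same tissue. There was 1 library per mark and no replicate, and the depth of each library is unknown from the peak lists, so that the values below are descriptions of these libraries and no p-value was computed.

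Trimethylation of histone H3 at lysine 4 (H3K4me3) is laid down mainly at promoters, most of all at those within CpG islands. Acetylation of lysine 27 (H3K27ac) marks active promoters and enhancers, whereas trimethylation of the same residue (H3K27me3) is the mark of Polycomb repression. A promoter with H3K4me3 and H3K27ac is usually active, one with H3K4me3 and H3K27me3 is termed bivalent and is common at developmental regulators in progenitors, and a peak with H3K4me3 alone has neither signature at the limit of detection used. In a tissue of mixed cells, the marks at a locus need not come from the same cells.

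Among the other autosomal H3K4me3 peaks, 7705 (30.4%, 29.9 to 31.0) overlapped H3K27ac alone, 3622 (14.3%, 13.9 to 14.7) overlapped H3K27me3 alone, and 1553 (6.14%, 5.84 to 6.44) overlapped both. The H3K4me3-only peaks were therefore the most numerous of the 4 classes in the lists as deposited. They took a smaller part of the marked length, with 6.63 Mb, or 40.8% of the autosomal H3K4me3 cover. Intervals on shares and medians cover counting error only and treat each peak as independent, although peaks of 1 library are not replicates of the tissue. The absence of a peak of another mark says only that none passed the authors' limit in that library. The H3K4me3 list has the same limit, a false discovery rate of 0.1, and false calls among the H3K4me3-only peaks were not tested for. Of these peaks, 8520 (68.6%) had a caller's q-value above 0.01. With H3K4me3 peaks alone limited to q-values up to 0.01, 3908 were H3K4me3-only, fewer than the 3987 with H3K27ac alone. With all 3 lists so limited, the share of H3K4me3-only peaks was 48.4%.

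Most H3K4me3-only peaks were short. Their median width was 368 bp (95% interval 363 to 376), the quartiles were 267 and 748 bp, and the range was 229 to 5285 bp, where 229 bp was also the shortest interval in the H3K4me3 list. The median was 548 bp (528 to 568) for peaks with H3K27ac alone, 544 bp (518 to 574) with H3K27me3 alone and 623 bp (573 to 673) with both. None of these 3 intervals reached that of the H3K4me3-only peaks. Because a longer interval has more bases with which to meet another peak, width is not independent of the rule, and this difference is given as a description.

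The shift lay in both tails of the width distribution. Under 500 bp were 7633 H3K4me3-only peaks, or 61.4% (60.6 to 62.3), against 47.1% of those with H3K27ac alone, 47.0% with H3K27me3 alone and 43.0% with both. The single fullest bin of 50 bp, from 250 to 299 bp, held 21.6% of the H3K4me3-only peaks and from 13.3% to 16.1% of the peaks in the other classes. Over 1000 bp were 1395 H3K4me3-only peaks, or 11.2% (10.7 to 11.8), where 17.9% of all autosomal H3K4me3 peaks were that wide and the other classes ran from 23.6% to 29.4%. Over 2000 bp were only 53 of them, or 0.426% (0.320 to 0.557). The same width was passed by 262 peaks with H3K27ac alone (3.40%), 160 with H3K27me3 alone (4.42%) and 90 with both (5.80%). Broad H3K4me3 domains were thus scarce among the H3K4me3-only peaks, in these libraries and at this limit of overlap.

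**Figure D1:**
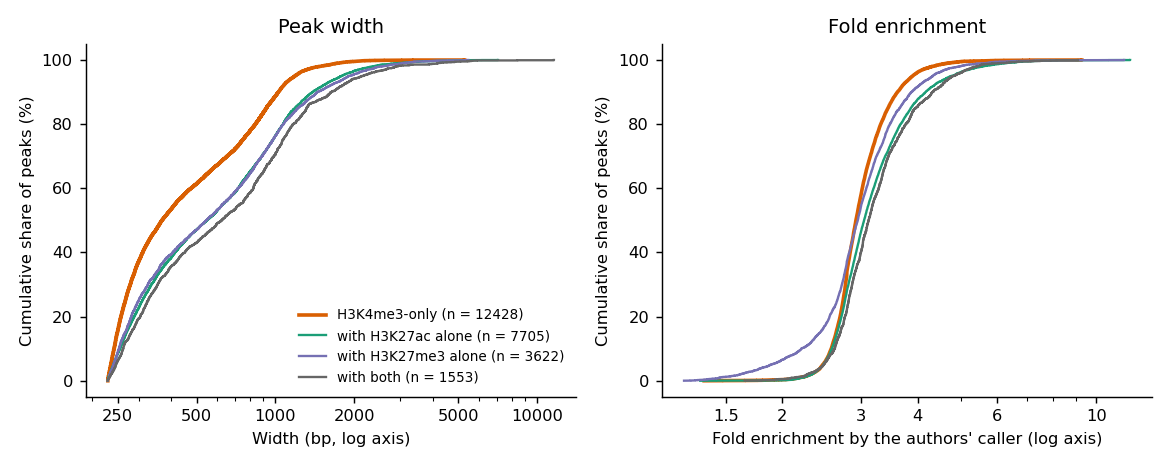
Cumulative share of autosomal H3K4me3 peaks (%) by width in bp (left, log axis) and by fold enrichment (right, log axis), with 1 line for each class of overlap. The line of the 12428 H3K4me3-only peaks lies to the left in width (median 368 bp against 544 to 623 bp), while the medians of fold enrichment lie closer together (2.92 against 2.94 to 3.11). Below the medians the line with H3K27me3 alone departs to the left, with a lower quartile of 2.65 against 2.73, and at a fold of 4 the H3K4me3-only line is the highest.

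Fold enrichment, the caller's ratio of signal over its local background, separated the medians of the classes less. The median was 2.92 (2.91 to 2.92) for H3K4me3-only peaks, 3.04 (3.02 to 3.06) with H3K27ac alone, 2.94 (2.92 to 2.96) with H3K27me3 alone and 3.11 (3.08 to 3.15) with both. The intervals of the H3K4me3-only peaks and of those with H3K27me3 alone overlapped, and the difference of these medians was not tested. The H3K4me3-only peaks ranged from 1.34 to 9.28. The lower quartile was 2.73 for H3K4me3-only peaks, 2.76 with H3K27ac alone, 2.65 with H3K27me3 alone and 2.81 with both. At the upper end, 475 H3K4me3-only peaks (3.82%, 3.49 to 4.17) reached a fold of 4, against 7.71% of all autosomal H3K4me3 peaks. That fold was reached by 948 peaks with H3K27ac alone (12.3%), 302 with H3K27me3 alone (8.34%) and 225 with both (14.5%).

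By the caller's q-value, the median of H3K4me3-only peaks was set apart from that of every other class. The median −log10 q was 1.63 (1.62 to 1.65) for H3K4me3-only peaks, against 2.05, 2.12 and 2.22 for peaks with H3K27ac alone, H3K27me3 alone and both. A stricter limit of 0.01 on the q-value was passed by 3908 H3K4me3-only peaks, or 31.4% (30.6 to 32.3), where 42.5% of all autosomal H3K4me3 peaks passed it and the other classes ran from 51.7% to 57.9%.

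The difference in strength was also present within deciles of width, though by fold it was less clear against peaks with H3K27me3 alone. Within each of 10 deciles of width, the median −log10 q of H3K4me3-only peaks was below that of every other class. Their median fold enrichment was below that of peaks with H3K27ac alone, and of peaks with both, in 10 of 10 deciles. It was below that of peaks with H3K27me3 alone in 7 of 10 and above it in 3. Some of these differences were small, as with 2.837 against 2.838 in the sixth decile. Over single autosomes, H3K4me3-only peaks had the lower median fold against peaks with H3K27ac alone on 30 of 32 (the exceptions were chromosomes 26 and 27). Against peaks with H3K27me3 alone they had it on 16 of 32, among them each of chromosomes 1 to 10. The exceptions were chromosomes 11, 12, 14, 15, 16, 18, 22, 23, 25, 26, 27, 28, 30, 31, 32 and 33. H3K4me3-only peaks were narrower than peaks with H3K27me3 alone on all 32, and than peaks with H3K27ac alone on 31, with chromosome 32 as the exception.

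Read the other way, the share of H3K4me3 peaks that had no other mark fell as the peaks grew. It was 64.8% (62.9 to 66.7) in the narrowest decile, of 229 to 246 bp, stayed between 46.9% and 50.8% from the fourth decile to the eighth, and was 22.5% (20.9 to 24.2) in the widest, of 1206 to 11589 bp. By −log10 q the share fell at every step, from 67.1% (65.3 to 69.0) to 18.0% (16.5 to 19.5). By fold enrichment it was not monotone. It was 41.8% (39.9 to 43.8) in the lowest decile, rose to 58.6% (56.7 to 60.5) in the fourth, and fell to 27.5% (25.8 to 29.3) in the highest, whose peaks had a fold of at least 3.85. In that lowest decile of fold, 33.1% of the peaks overlapped H3K27me3, against 15.6% in the next one. Peaks without another mark were nonetheless present in every decile of each measure.

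**Figure D2:**
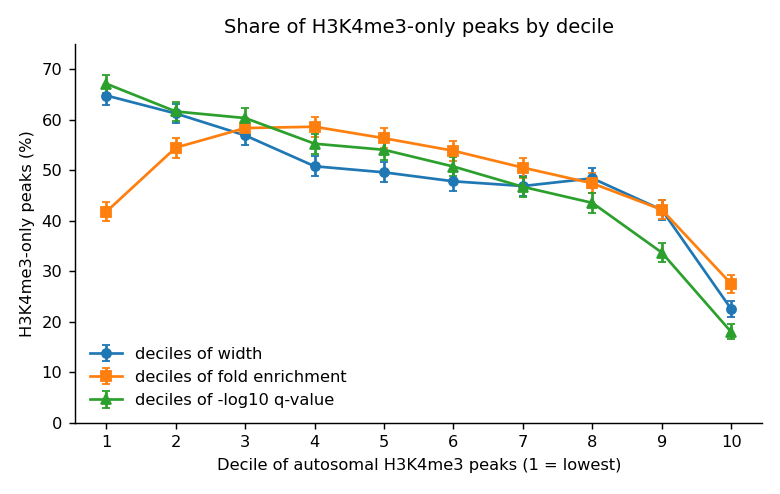
Share of autosomal H3K4me3 peaks that were H3K4me3-only (%), by decile of width, of fold enrichment and of −log10 q-value, with 95% Clopper-Pearson intervals as bars. The share falls from 64.8% to 22.5% over deciles of width and from 67.1% to 18.0% over deciles of −log10 q, and it rises before it falls over deciles of fold enrichment.

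The sites that carry the extremes were few enough to give one by one, in the coordinates of the GalGal6 build. No genome of that build was used here, so neither the sequence nor the gene at a site is given. The widest H3K4me3-only peak was chr33:5447988-5453272, of 5285 bp and a fold of 2.83, which lay 103 bp from an H3K27ac peak and 12.5 kb from an H3K27me3 peak. It ranked 16 by width among all autosomal H3K4me3 peaks. The next was chr21:5317272-5320645, of 3374 bp and a fold of 3.41, with H3K27ac at 7.21 kb and H3K27me3 at 5.01 kb. The peak chr3:23429633-23432876, of 3244 bp and a fold of 4.39, stopped 12 bp short of an H3K27ac peak. The last of the 5 widest were chr2:56337464-56340699, of 3236 bp, whose gaps to the 2 marks were 4.03 and 4.23 kb, and chr22:981352-984570, of 3219 bp, whose gaps were 17.5 and 78.8 kb. In width these 4 ranked 94, 111, 113 and 116, so the widest of the class were well inside the range of the other H3K4me3 peaks. Of the 5, the first and the third lay so near to H3K27ac that a small shift of an edge would have put them in another class.

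Of the 5 sites of highest fold enrichment, 4 were short. The peak chr2:61065808-61066108 had a fold of 9.28, the rank of 8 among all autosomal H3K4me3 peaks, over 301 bp, with H3K27ac at 1.17 kb and H3K27me3 at 2.49 kb. The second, chr10:19112724-19113971, had a fold of 8.10 over 1248 bp, and its −log10 q of 40.1 was the highest of the class. It lay 4.14 kb from H3K27ac and 50.8 kb from H3K27me3, with another H3K4me3 peak at 1.40 kb. The other sites were chr11:4185654-4185945 with a fold of 7.37, chr5:48701871-48702171 with 7.29 and chr13:12007679-12007953 with 7.12, each 275 to 301 bp wide. Of the 475 peaks with a fold of at least 4, the median width was 301 bp, against 374 bp for the weaker ones. Across the H3K4me3-only peaks, width and fold ran weakly in opposite directions (Spearman's rho −0.18 over 12428 peaks, which share 1 library and the caller's length limit).

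The distance to active chromatin was measured as the gap from the edge of a peak to the nearest edge of an H3K27ac peak. The median gap of H3K4me3-only peaks was 9271 bp (9031 to 9591), with quartiles of 3395 and 22985 bp. Within 1 kb of an H3K27ac peak lay 681 of them (5.48%), within 5 kb 4169 (33.5%, 32.7 to 34.4), within 10 kb 6467 (52.0%) and within 50 kb 11123 (89.5%). The H3K4me3 peaks that overlapped H3K27me3 alone, which the classification likewise kept off H3K27ac, lay farther away, with a median of 17113 bp (15890 to 18339) and 19.4% (18.1 to 20.7) within 5 kb. The order held on 31 of 32 autosomes, chromosome 26 being the exception. The 12554 autosomal H3K27me3 peaks without either other mark had a median gap to H3K27ac of 15741 bp (15277 to 16221), with 21.8% within 5 kb.

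The distance to Polycomb chromatin was larger, toward a list with fewer peaks (19942 on autosomes against 43416 for H3K27ac). The median gap of H3K4me3-only peaks to the nearest H3K27me3 peak was 19616 bp (19162 to 20121), with quartiles of 7912 and 41899 bp. Within 1 kb lay 304 (2.45%), within 5 kb 2094 (16.8%, 16.2 to 17.5), within 10 kb 3769 (30.3%) and within 50 kb 9989 (80.4%). The H3K4me3 peaks with H3K27ac alone were farther from H3K27me3, at a median of 24144 bp (23444 to 24990) and with 12.0% (11.2 to 12.7) within 5 kb. Here the order held on 27 of 32 autosomes, and the exceptions were chromosomes 7, 15, 16, 22 and 30. The 31816 H3K27ac peaks without either other mark had a median gap to H3K27me3 of 23290 bp (22943 to 23706). The H3K4me3-only peaks were thus nearer to each of the other marks than the H3K4me3 class that carried the opposite mark, in both directions of the comparison.

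**Figure D3:**
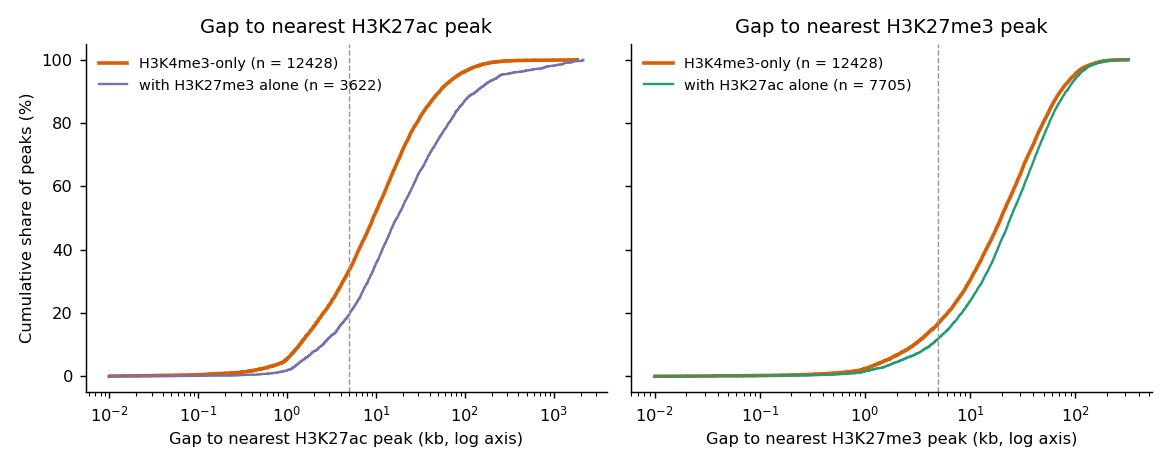
Cumulative share of peaks (%) by the gap in kb (log axis) to the nearest H3K27ac peak (left) and to the nearest H3K27me3 peak (right), with a dashed line at 5 kb and gaps under 0.01 kb drawn at 0.01. H3K4me3-only peaks reach 33.5% at 5 kb from H3K27ac against 19.4% for H3K4me3 peaks with H3K27me3 alone, and 16.8% at 5 kb from H3K27me3 against 12.0% for those with H3K27ac alone.

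H3K27ac was the nearer mark for 7969 H3K4me3-only peaks (64.1%, 63.3 to 65.0) and H3K27me3 for 4439, while 20 had equal gaps. The H3K27ac list held more peaks, 43416 on autosomes against 19942, and covered 46.1 Mb against 16.3 Mb. A list with more peaks lies nearer by construction, and this was not corrected for. On 29 of 32 autosomes the median gap to H3K27ac was the smaller one, and chromosomes 30, 31 and 33 were the exceptions. The gap to whichever mark was nearer had a median of 6105.5 bp and quartiles of 2431 and 13432 bp. Only 281 peaks (2.26%) had both marks beyond 50 kb, and 17 had both beyond 100 kb.

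Few H3K4me3-only peaks had both marks within 5 kb, although both lay within 10 kb for 16.4% and within 50 kb for 72.1%. Within 5 kb, 3347 H3K4me3-only peaks (26.9%, 26.2 to 27.7) had H3K27ac alone, 1272 (10.2%, 9.71 to 10.8) had H3K27me3 alone, 822 (6.61%, 6.18 to 7.07) had both, and 6987 (56.2%, 55.3 to 57.1) had neither. Thus more than 1 in every 2 had no peak of another mark inside that window. Flanking on both sides was rare, with H3K27ac within 5 kb on 2 sides for 804 peaks (6.47%) and H3K27me3 for 160 (1.29%). Over all H3K4me3-only peaks, Spearman's rho between the gaps was 0.01, a value over peaks that share the same 3 libraries. This rho covers all distances and does not describe the 5 kb window, where a link between the marks was not tested.

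A narrow ridge of equal gaps stood out within that spread. For 1043 H3K4me3-only peaks (8.39%, 7.91 to 8.89) the gaps differed by at most 10% of the larger one. For 729 of those (69.9%, 67.0 to 72.7), the nearest H3K27ac peak and the nearest H3K27me3 peak overlapped each other, so that both gaps led to a single place. In all, 913 H3K4me3-only peaks (7.35%, 6.89 to 7.82) had such a shared neighbour. They lay a median of 6144 bp from its H3K27ac peak and 6244 bp from its H3K27me3 peak, against 9665 and 21319 bp for the other H3K4me3-only peaks. Because the 913 were picked by the overlap of these neighbours, their gaps tend to be alike by construction, with a median difference of 107 bp. The contrast with the other peaks is therefore given as a description. The width of the 913, with a median of 393 bp against 367 bp, and their fold, 2.90 against 2.92, were little different.

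**Figure D4:**
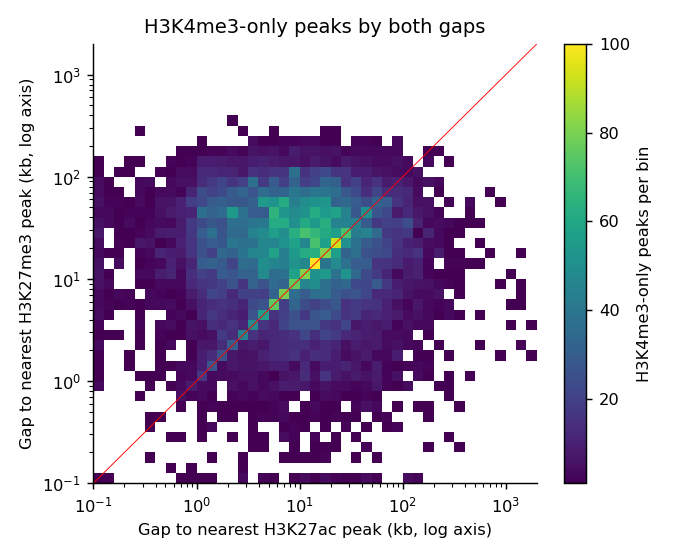
Number of H3K4me3-only peaks per bin by the gap in kb to the nearest H3K27ac peak (horizontal, log axis) and to the nearest H3K27me3 peak (vertical, log axis), with a thin line where both gaps are equal and gaps under 0.1 kb drawn at 0.1. Most peaks form a broad cloud above the line, where H3K27ac is nearer (64.1%). Along the line runs a ridge of peaks with alike gaps. For 729 of the 1043 with alike gaps, the nearest H3K27ac and H3K27me3 peaks overlap each other.

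The neighbours themselves, taken at all distances, were shorter than the rest of their lists. Whether a peak is nearest also depends on the spacing of its own list, and this was not corrected for. The H3K4me3-only peaks pointed to 9157 different nearest H3K27ac peaks. Of these, 23.1% (22.2 to 23.9) overlapped an H3K4me3 peak, against 20.5% (20.1 to 21.0) of the 34259 autosomal H3K27ac peaks that were nearest to none, and their median width was 633 bp (613 to 651) against 800 bp (789 to 810). The median fold was 2.66 in both sets. The 7649 different nearest H3K27me3 peaks overlapped H3K4me3 in 22.8% (21.9 to 23.8), against 25.6% (24.8 to 26.3) of the other 12293, with widths of 422 bp (407 to 436) and 527 bp (514 to 542) and median folds of 2.82 (2.81 to 2.83) and 2.87 (2.86 to 2.89). Of the H3K27ac neighbours, 12.2% (11.5 to 12.9) also carried H3K27me3, against 8.58% (8.29 to 8.88) of the rest. Neighbours within 5 kb stood closer to their whole lists. The 3976 such H3K27ac peaks had a median width of 698.5 bp (669 to 737), against 763 bp (754 to 773) for all. Of them, 10.5% (9.53 to 11.5) carried H3K27me3, against 9.34% (9.07 to 9.62) of all. The 1995 such H3K27me3 peaks had a median width of 456 bp (424 to 480), against 485 bp (475 to 495) for all. Hence about 3 in 4 of the nearest H3K27ac peaks, and of the nearest H3K27me3 peaks, were not at an H3K4me3 peak themselves. The lists as a whole were close to this, with 21.1% of all autosomal H3K27ac peaks and 24.5% of all autosomal H3K27me3 peaks overlapping H3K4me3.

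Width and fold of the H3K4me3-only peaks varied little with distance. From a gap to H3K27ac under 1 kb to one over 100 kb, the median width went from 375 bp (348 to 403) to 333 bp (316 to 369), and the median fold from 2.90 (2.87 to 2.91) to 2.95 (2.91 to 2.99). Some bins between these ends had separate intervals. At 1 to 5 kb from H3K27ac the median width was 387 bp (373 to 401) and the median fold 2.91 (2.89 to 2.92), and at 50 to 100 kb they were 349 bp (330 to 366) and 2.96 (2.92 to 2.99). Over the same span of gaps to H3K27me3, the median width was 360 to 376 bp and the median fold 2.90 to 2.94. The H3K4me3-only peaks that passed the q-value limit of 0.01 lay at a median of 9286 bp (8821 to 9814) from H3K27ac, and those that did not pass it at 9264.5 bp (8985 to 9675). Toward H3K27me3 the medians of these sets were 20251.5 bp (19403 to 21351) and 19364.5 bp (18733 to 20006), and their intervals overlapped. Peaks with a fold of at least 4 were likewise no nearer to H3K27ac than the others beyond the intervals, with 8725 bp (7556 to 10118) against 9290 bp (9047 to 9629).

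The wide H3K4me3-only peaks lay nearer to H3K27ac than the narrow ones. The median gap was 9760 bp (9331 to 10188) for those under 500 bp and 7905 bp (7282 to 8632) for those over 1000 bp, and the share within 5 kb was 32.8% (31.8 to 33.9) and 37.1% (34.6 to 39.7). The 53 peaks over 2000 bp had a median gap of 5905 bp (3555 to 10825), whose interval takes in that of the class as a whole. A wider peak reaches nearer to its neighbours by its own length, and this was not corrected for. Toward H3K27me3 the medians were 19852 bp (19247 to 20512) under 500 bp and 19559 bp (17936 to 21039) over 1000 bp.

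At the far end of the range stood sites with neither mark for over 100 kb. The 5 farthest, by the smaller of the gaps, were on chromosomes 4 and 1. On chromosome 4, chr4:7208836-7209489 lay 174.7 kb from H3K27ac and 164.9 kb from H3K27me3. Its neighbour chr4:7259704-7260205, 50.2 kb away, lay 225.6 and 161.0 kb from the marks. The peaks chr4:41492946-41493207 and chr4:32524139-32524564 had smaller gaps of 158.0 and 156.5 kb, and chr1:32214884-32215164 had one of 135.8 kb. These sites were 262 to 654 bp wide with folds of 2.51 to 3.38, and the nearest other H3K4me3 peak was 50.2 to 176.2 kb away. The largest single gap to H3K27ac, of 1830 kb, was at chr33:316122-317350.

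At the edge of the rule, 89 H3K4me3-only peaks (0.716%) had another mark within 100 bp, and 2 of them abutted one with a gap of 0 bp. They had a median width of 400 bp and a median fold of 2.87. On the other side, 440 H3K4me3 peaks (3.42% of those that overlapped another mark) shared at most 100 bp with other marks in all, and 3 shared a single base. Their median width was 502 bp and their median fold 2.79.

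Pooled over autosomes, which differ in their density of H3K4me3 peaks, the H3K4me3-only peaks also stood farther from other peaks of their own mark. This order was not examined on single autosomes. The median gap to the nearest H3K4me3 peak of any class was 13350 bp (12995 to 13628), against 10048 bp (9677 to 10395) for peaks with H3K27ac alone, 7715 bp (7318 to 8252) with H3K27me3 alone and 10149 bp (9456 to 11219) with both. Within 1 kb of another H3K4me3 peak were 87 of them, or 0.700% (0.561 to 0.863), where 1.22% of all autosomal H3K4me3 peaks were so placed. No peaks of the list lay closer than 919 bp to each other. The gap to the next H3K4me3 peak was shorter where other marks were near, with 6253 bp (4968 to 7431) for the 822 peaks that had both marks within 5 kb and 16139 bp (15719 to 16615) for the 6987 that had neither.

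The nearest H3K4me3 neighbour of an H3K4me3-only peak was another H3K4me3-only peak in 55.4% of cases (54.5 to 56.2), where these made up 49.1% of the autosomal list. The share with an H3K4me3-only neighbour was 43.0% (41.9 to 44.2) for peaks with H3K27ac alone, 36.6% (35.1 to 38.2) with H3K27me3 alone and 45.8% (43.3 to 48.3) with both. An excess of neighbours of the same class was also present in each of these classes. For peaks with H3K27ac alone the same-class share was 44.19% (43.08 to 45.31), against 30.4% of the autosomal list. With H3K27me3 alone it was 43.98% (42.36 to 45.62) against 14.3%, and with both 8.89% (7.52 to 10.41) against 6.14%. Such an excess was therefore not particular to the H3K4me3-only peaks. Runs of H3K4me3-only peaks were short. When those within 10 kb of each other were joined, 9430 (75.9%) stood alone, 1185 pairs formed, and 199 runs held 3 or more, with 628 peaks (5.05%) in them. The longest runs had 6 peaks each. One, chr1:170967263-170991002, spanned 23.7 kb with no peak of either other mark inside, and the other, chr3:67934813-67966503, spanned 31.7 kb with 1 H3K27ac peak.

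The density of H3K4me3-only peaks was similar in 3 size classes of autosomes, and that of the other H3K4me3 peaks was not. Autosomes were set in 3 classes by span, taken as the end of the last peak of any list, with 5 autosomes of 50 Mb or more, 7 of 20 to 50 Mb and 20 under 20 Mb. There were 12.9, 12.6 and 13.5 H3K4me3-only peaks per Mb in these classes, in that order. The other H3K4me3 peaks went from 11.0 to 14.0 to 21.9 per Mb, and H3K27ac peaks from 35.9 to 53.2 to 71.1 per Mb. With these densities, the share of H3K4me3-only peaks fell from 54.1% (53.2 to 54.9) on the largest autosomes to 47.3% (45.9 to 48.7) and 38.1% (36.8 to 39.4). Over the 28 autosomes with at least 50 H3K4me3-only peaks, their density ran from 8.06 per Mb on chromosome 33 to 17.9 on chromosome 23, a 2.23-fold range. The density of the other H3K4me3 peaks ran from 10.2 per Mb on chromosome 4 to 40.4 on chromosome 27, a 3.94-fold range. With the 4 remaining autosomes, which held 9 to 22 H3K4me3-only peaks each, this order was reversed. Over all 32, the H3K4me3-only peaks ran from 3.18 per Mb on chromosome 16 to 19.3 on chromosome 32, a 6.06-fold range, and the others from 9.55 to 40.4 per Mb, a 4.22-fold range.

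By strength, H3K4me3-only peaks with a q-value above 0.01 had densities of 9.00, 8.69 and 8.64 per Mb from the largest to the smallest size class, whereas those at or below it had 3.91, 3.93 and 4.83 per Mb. Other H3K4me3 peaks rose in both sets, from 5.19 to 9.84 per Mb for the weaker and from 5.78 to 12.1 per Mb for the stronger. H3K4me3-only peaks over 1000 bp had 1.39, 1.49 and 1.65 per Mb, while other H3K4me3 peaks of that width went from 2.52 to 5.94 per Mb.

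The gap to H3K27ac followed the size of the autosome and the gap to H3K27me3 did not. The median gap of H3K4me3-only peaks to H3K27ac was 11.8 kb (11.4 to 12.3), 7.81 kb (7.23 to 8.29) and 5.30 kb (4.93 to 5.69) in the 3 size classes, and the share within 5 kb was 28.4%, 37.0% and 48.2%. The median gap to H3K27me3 was 19.2 kb (18.6 to 19.9), 20.2 kb (19.3 to 21.9) and 20.6 kb (19.0 to 21.9), with 16.8%, 16.5% and 17.4% within 5 kb. In these classes H3K27ac had 35.9, 53.2 and 71.1 peaks per Mb, and H3K27me3 had 19.7, 19.5 and 26.4. A denser list lies nearer by construction, and this was not corrected for. Spearman's rho of the span with the median gap over the 32 autosomes was 0.62 for H3K27ac and −0.14 for H3K27me3, and with the share of H3K4me3-only peaks it was 0.75. Between the density of H3K27ac peaks and the median gap to H3K27ac, rho was −0.66. These are descriptions over autosomes that share the same 3 libraries. Width and fold were nearly level, with medians of 363, 386 and 372 bp and of 2.92, 2.91 and 2.90.

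Single autosomes departed from the trend. Over the 28 with at least 50 H3K4me3-only peaks, the share ran from 22.2% on chromosome 27 to 56.1% on chromosome 3, the median gap to H3K27ac from 3.48 kb on chromosome 23 to 18.7 kb on chromosome 33, and that to H3K27me3 from 10.5 kb on chromosome 33 to 29.4 kb on chromosome 25. Chromosome 33, with 63 H3K4me3-only peaks among its H3K4me3 peaks (23.8%), had 32.2 H3K27ac peaks per Mb. That density was near the 33.1 per Mb of chromosome 1, where the median gap to H3K27ac was 13.3 kb. Chromosome 31 had 22 H3K4me3-only peaks with a median gap to H3K27ac of 120.2 kb and to H3K27me3 of 8.21 kb, beside 10.1 H3K27ac peaks per Mb. The part of mapping or assembly quality in these small chromosomes was not tested.

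**Figure D5:**
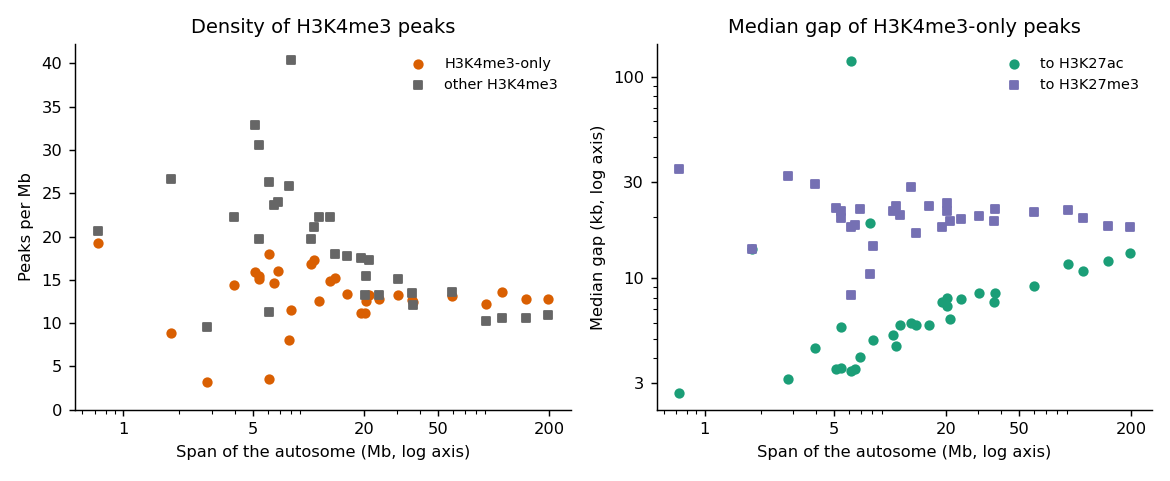
Left, peaks per Mb against the span of each of the 32 autosomes (Mb, log axis) for H3K4me3-only peaks (circles) and other H3K4me3 peaks (squares). Right, median gap of H3K4me3-only peaks in kb (log axis) to H3K27ac (circles) and to H3K27me3 (squares). The density of H3K4me3-only peaks stays near 13 per Mb over the larger autosomes while that of the others rises toward the small ones, and the gap to H3K27ac shrinks from 11.8 kb to 5.30 kb between the outer size classes while the gap to H3K27me3 stays near 20 kb.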

How the data were processed

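ChIPseq of H3K27ac, H3K4me3 and H3K27me3 and an input library, 1 each, was carried out on OEP tissue of chick embryos at ss8-9. Per the methods and the submitters' processing notes, the authors trimmed reads with Trim Galore, aligned them to GalGal6 with BWA within the NF-core ChIPseq pipeline and used MACS2 to find broad peaks, with 0.1 as the limit on the false discovery rate. Whether the input served as the control is not given in the sources used here. The input library was not analysed here. Each deposited list gives, per broad peak, a score (not used further), the fold enrichment as a ratio to the caller's background, and −log10 of the p-value and of the q-value. No pooling of replicates is stated, and no read counts were used, so depth is unknown.

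From these lists, overlaps of at least 1 bp, edge-to-edge gaps, widths and medians were computed with Python 3.11.15, numpy 2.4.6, pandas 2.3.3 and scipy 1.17.1, and checked on simulated intervals against bedtools 2.31.1. Shares have exact Clopper-Pearson 95% intervals and medians have order-statistic intervals. Autosomes are the numbered chromosomes. The H3K4me3-only peaks, the limits and the sites were chosen with earlier results of these data known. The sites named are the 5 widest, the 5 of highest fold enrichment and the 5 whose smaller gap to another mark was largest. The 2 longest runs, the largest gap to H3K27ac, the shared nearest neighbours and the densities by strength were chosen after their values were seen. The gene table at hand follows another assembly than the peak lists, so gene names and sequences were not used here. Alternatives in stringency, overlap, merging and sequences were tried, as given at the end.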

Additional observations from a re-analysis of the deposited data

How the results depend on the processing

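Of 63 values under 7 other settings, 26 stayed within the 95% interval of the main value (for the number of peaks, within 1.5 times of it) and 37 moved. With all 3 lists limited to q-values up to 0.01, there were 5210 H3K4me3-only peaks (48.4% of the autosomal H3K4me3 peaks at that limit). Only 3908 of the H3K4me3-only peaks of the main rule passed it. The others of the 5210 overlapped a deposited H3K27ac or H3K27me3 peak that the limit removed. The 5210 had a median width of 328.5 bp and a fold of 3.41. Their gaps were 17.2 kb to H3K27ac and 48.5 kb to H3K27me3, with 21.1% and 8.12% within 5 kb of these marks. With that limit on H3K4me3 alone there were 3908 (36.3%), fewer than the 3987 peaks with H3K27ac alone. These 3908 H3K4me3-only peaks had a median width of 308 bp and a fold of 3.42, with a gap to H3K27me3 of 20.3 kb. With a fold of at least 4 in all lists there were 1448 (74.3%), of which 475 were H3K4me3-only peaks of the main rule. The others overlapped a deposited peak of another mark that fell under that fold. The 1448 had a median width of 377 bp and a fold of 4.39, with gaps of 243.8 and 357.5 kb. Within 5 kb of the marks lay 2.83% and 2.69%, and 0.552% had another H3K4me3 peak within 1 kb. Stricter lists hold fewer peaks, which lengthens gaps and leaves fewer overlaps by construction. A limit on fold likewise raises the median fold. When an overlap had to reach 50% of the shorter peak, the share was 53.9%, the width 390 bp, the gaps 8.28 and 19.0 kb, and 37.7% and 19.1% lay within 5 kb. When the centre of the H3K4me3 peak had to lie inside the other peak, the share was 57.8%, the width 423 bp, the gaps 7.58 and 18.1 kb, 40.5% and 21.2% lay within 5 kb, and 0.888% had another H3K4me3 peak within 1 kb. Both rules admit peaks that touch another mark. Merging peaks within 1 kb left 0% with another H3K4me3 peak at that distance, by construction. With all sequences in place of autosomes, the gap to H3K27ac was 9.64 kb. H3K27ac was the nearer mark by median gap in all 7 settings. Its list as deposited held more autosomal peaks, 43416 against 19942 for H3K27me3, which shortens gaps by construction.

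No paired analysis was possible because each mark has 1 library, so there was also no library to leave out. The lists hold peaks past the authors' limit only, and a weaker H3K27ac or H3K27me3 signal at an H3K4me3-only peak was not tested, nor was the part of each library's unknown depth in its number of peaks.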

Other observations

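Outside the autosomes, the same rule of no overlap selected 810 of 1461 H3K4me3 peaks on chromosome Z (55.4%, 52.8 to 58.0), 18 of 41 on chromosome W (43.9%, 28.5 to 60.3) and 20 of 534 on 107 unplaced sequences (3.75%, 2.30 to 5.73). On chromosome Z these peaks had a median width of 338.5 bp (320 to 364) and a median fold of 2.97 (2.95 to 3.01), and lay at a median of 16.0 kb from H3K27ac and 24.3 kb from H3K27me3. On chromosome W the median gaps were 131.7 kb to H3K27ac and 81.7 kb to H3K27me3. On the unplaced sequences, the 19 peaks with an H3K27me3 peak on the same sequence lay at a median of 7.53 kb from it.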
